A study of Rattus norvegicus with 23 samples.

Results

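NRK-49F cells are an established fibroblast line from rat kidney, and they are compared here at an acidic pH of 6.0 and at the normal pH of 7.4. Their libraries were chosen by their labels, the cell line NRKF and the pH, which gave 11 of the 23 rat libraries used, with n = 6 at pH 7.4 and n = 5 at pH 6.0. The study exposed fibroblasts and epithelial cells (NRK-52E, the other 12 libraries) of rat kidney to acidosis and asked which genes respond. By the labels, neither group of NRK-49F cells carried a gene change or an added drug. They were grown in DMEM with 10% FCS and, by the labels, 1.5 g/l NaHCO3, kept without serum for 24 h and then held for 48 h at pH 7.4 or at pH 6.0, which was set with HCl. Both groups came from 1 cell line in monoculture, so by design the cultures held no other kidney cell and the data hold no animal-to-animal spread. The labels place the libraries in sample groups 4 (3 libraries at pH 7.4 and 2 at pH 6.0) and 6 (3 and 3), without saying what a sample group is, and they do not say whether the libraries of a group are separate cultures. The p-values therefore measure the spread between these libraries, which may in part be technical.

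Fibroblasts build and remodel the extracellular matrix of the kidney, and after injury they can turn into contractile myofibroblasts that drive fibrosis. Low extracellular pH accompanies ischaemia, inflammation and systemic acidosis. Cells meet it with acid-extruding transporters and proton-sensing receptors, and stress pathways such as the antioxidant programme of the transcription factor NRF2 and the integrated stress response can be engaged when redox or protein balance is disturbed. Mechanical and growth signals reach the nucleus of fibroblasts through the co-activators YAP and TAZ and through SMAD proteins, which carry the signals of the TGF-beta and BMP families.

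The deposited values were raw counts of read pairs from poly(A) RNA on the exons of Ensembl genes, and total counts per library ranged from 16412564 to 34250535. Levels are given as FPM, fragments per 1000000 counted, after TMM scaling of the library, which are not divided by gene length and so are compared only between libraries and not between genes. The table listed 30452 genes, 20447 had at least 1 count in NRK-49F cells, and 13659 had enough counts to be tested. The change from pH 7.4 to pH 6.0 was tested by edgeR's quasi-likelihood test in the 11 NRK-49F libraries alone, with the sample group as a block, and a gene is called changed where its Benjamini-Hochberg adjusted p was under 0.05. A log2 fold change is always pH 6.0 over pH 7.4. Because the counts are relative to the library total, fewer cells and less RNA per cell cannot be told apart.

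The label of a fibroblast fitted the markers in part. Of 14 fibroblast markers, 12 were above 5 FPM in all 11 libraries, among them the collagens Col1a1, Col1a2 and Col3a1, the PDGF receptors and the transcription factors Prrx1 and Twist1. The surface antigen Thy1 was at 0 to 0.188 FPM and the proteoglycan Dcn was low. The summed level of these markers was 25350 to 30270 FPM at pH 7.4 and 19930 to 26180 FPM at pH 6.0, and 1 of the 13 that could be tested rose and 6 fell. Of 16 epithelial markers in the table, 12 were under 1 FPM in every library, and 4 were not. The keratin Krt8 was at 412 to 1116 FPM, although its partner Krt18 was at 0.493 FPM or less. Krt7 was highest in A051 at 2.09 FPM, close to 1.89 FPM in A041 and 1.70 FPM in A039. Marveld2 reached 1.49 FPM in A051, and Spint1 reached 3.46 FPM. Cdh1, Cldn3, Cldn4, Cldn7, Esrp1 and Elf3 were at 0 FPM in A051. Grhl2 was highest in A051 at 0.177 FPM. Epcam was at 0.0354 FPM in A051 and at 0 FPM in the other 10 libraries. Krt18, Rab25, Prom2 and Ehf were above 0 FPM in A051, but each was higher in another library. The summed level of the 16 markers, most of it Krt8, was 752.5 FPM in A051 and highest in A052 at 1117 FPM. Krt8 (log2 fold change -0.59, adjusted p = 0.00958) and Krt7 (log2 fold change -1.83, adjusted p = 0.0190) fell and Spint1 (log2 fold change 2.53, adjusted p = 2.1e-04) rose at pH 6.0. Of 7 leukocyte markers, 7 stayed under 1 FPM.

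**Figure D1:**
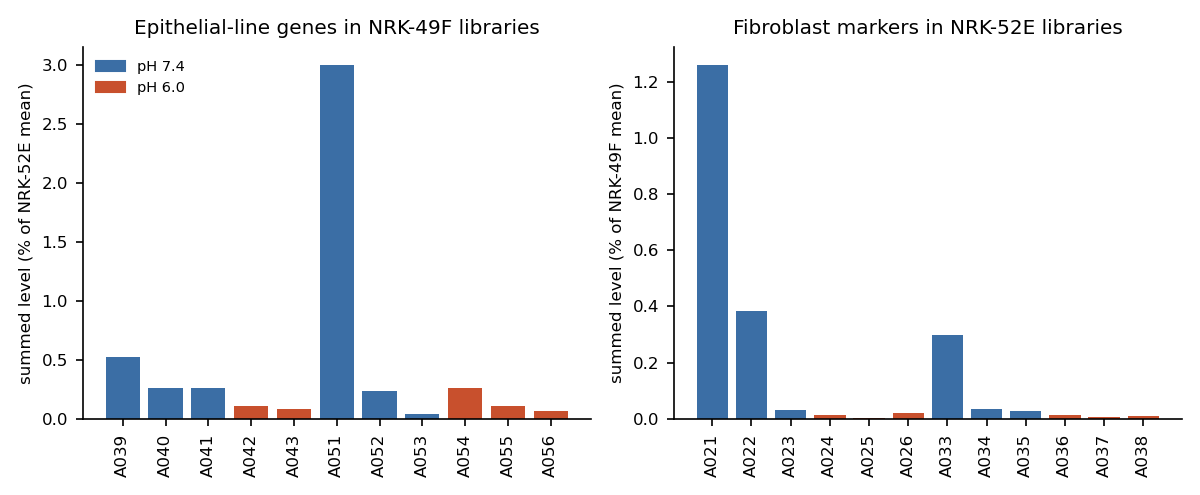
Left, summed level of 23 genes of NRK-52E epithelial cells in each NRK-49F library (x axis), as percent of their mean in NRK-52E cells at pH 7.4 (y axis), and right, summed level of 5 fibroblast markers in each NRK-52E library, as percent of their NRK-49F mean at pH 7.4, with blue bars for pH 7.4 and red bars for pH 6.0. On the left A051 stood at 3.0% and the other 10 at 0.0425% to 0.523%, and on the right 3 libraries at pH 7.4 stood at 0.298% to 1.26%.

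Library A051, at pH 7.4, carried some signal of the epithelial line. The 23 genes that had at least 20 FPM in every NRK-52E library at pH 7.4 and a median under 0.1 FPM in NRK-49F cells summed to 3.0% of their NRK-52E level in A051 and to 0.0425% to 0.523% in the other 10. Library A042, at pH 6.0, stood apart in another way. Its median correlation with the other libraries at pH 6.0 was 0.961, against 0.976 to 0.992 for the other libraries with those of their own pH, and its 10 most counted genes took 9.995% of its counts, against 6.298% to 8.591% in the others. Counts of changed genes are therefore also given without A042 and A051, for the larger lists and wherever the count moves by 1.5 times or more, a setting chosen after the data had been seen.

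Acidosis changed about as many genes upward as downward. Of the 13659 genes tested, 2195 rose (16.1%) and 2229 fell (16.3%), so 32.4% changed, and 483 of the risers and 545 of the fallers changed more than 2-fold. Without A042 and A051, 1908 rose and 1889 fell. For 3043 genes (22.3%) no library at one pH overlapped with any at the other. Of the 777 long non-coding RNAs tested, 88 rose and 104 fell. The percentages 16.1% and 16.3% are the background against which each gene group below is read.

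The genes with the largest rises came from several unrelated functions. The largest was that of Ampd3 (ENSRNOG00000018262, chromosome 1), an AMP deaminase of purine breakdown, which was between 1.05 and 3.46 FPM at pH 7.4 with a median of 1.31 (n = 6), and at 44.02, 59.9, 35.7, 28.02 and 40.4 FPM in the 5 libraries at pH 6.0. These 5 values, here and for the genes below, are in the order A042 and A043 (sample group 4) and A054, A055 and A056 (sample group 6). The 2 groups were far apart (log2 fold change 4.73 ± 0.25 (SE), adjusted p = 1.4e-07). Olfm1, a secreted olfactomedin, rose with a log2 fold change of 3.89, and the stress-induced factor Atf3 with one of 3.43. The aldo-keto reductases Akr1b10 (ENSRNOG00000009734, chromosome 4) and Akr1b8 (ENSRNOG00000027433, chromosome 4), which detoxify reactive aldehydes, rose with log2 fold changes of 3.00 and 2.79. Akr1b8 was between 398 and 521 FPM at pH 7.4 with a median of 459 (n = 6), and at 5221, 3011, 2851, 2642 and 2179 FPM in the 5 libraries at pH 6.0. All libraries at pH 6.0 were above all at pH 7.4, and A042 was far above its group. Both genes are closely related in sequence, and since reads with several matches were counted, the share of each is uncertain. The gene of the lysosomal glycoprotein Cd68, usually taken as a macrophage marker, stood at 20.2 to 30.9 FPM at pH 7.4 and 202 to 231 FPM at pH 6.0 (log2 fold change 2.93, adjusted p = 5.3e-09), while all 7 leukocyte markers stayed under 1 FPM. Klhl40, known from muscle (log2 fold change 2.77, adjusted p = 6.1e-06), Ggt1, the gamma-glutamyltransferase that breaks down extracellular glutathione (log2 fold change 2.74, adjusted p = 4.1e-09), Lrp8, a reelin and apolipoprotein E receptor (log2 fold change 2.66, adjusted p = 1.1e-06), and Mlh3, a mismatch repair protein (log2 fold change 2.65, adjusted p = 7.6e-06), complete the 10 largest rises among genes whose mean reached 5 FPM and whose pH values did not overlap.

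The 10 largest falls began with Fam180a and included a chemokine, the endothelin precursor and CCN genes. Fam180a had a log2 fold change of -3.76, and Slc24a3, a potassium-dependent sodium/calcium exchanger, one of -3.39. The chemokine Cxcl12 (ENSRNOG00000013589, chromosome 4), which holds leukocytes and stem cells through its receptor CXCR4, was between 365 and 537 FPM at pH 7.4 with a median of 458 (n = 6), and at 41.02, 59.1, 38.4, 50.8 and 40.9 FPM in the 5 libraries at pH 6.0. The lowest library at pH 7.4 was several times above the highest at pH 6.0 (log2 fold change -3.25 ± 0.13 (SE), adjusted p = 1.2e-08). Edn1 (ENSRNOG00000014361, chromosome 17), the precursor of the vasoconstrictor endothelin-1, was between 7.02 and 15.97 FPM at pH 7.4 with a median of 9.13 (n = 6), and at 1.31, 1.44, 0.894, 1.23 and 0.827 FPM in the 5 libraries at pH 6.0, which gave a log2 fold change of -3.05 ± 0.18 (SE, adjusted p = 2.9e-07). Cavin2, a coat protein of caveolae (log2 fold change -3.01, adjusted p = 5.3e-09), the membrane protein Upk3b (log2 fold change -2.91, adjusted p = 1.9e-06), the integrin-like secreted protein Itgbl1 (log2 fold change -2.80, adjusted p = 1.5e-06) and complement C3 (log2 fold change -2.74, adjusted p = 1.3e-07) fell as well. The remaining 2 of the 10 largest falls, Ccn2 and Ccn3, are described with their family.

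**Figure D2:**
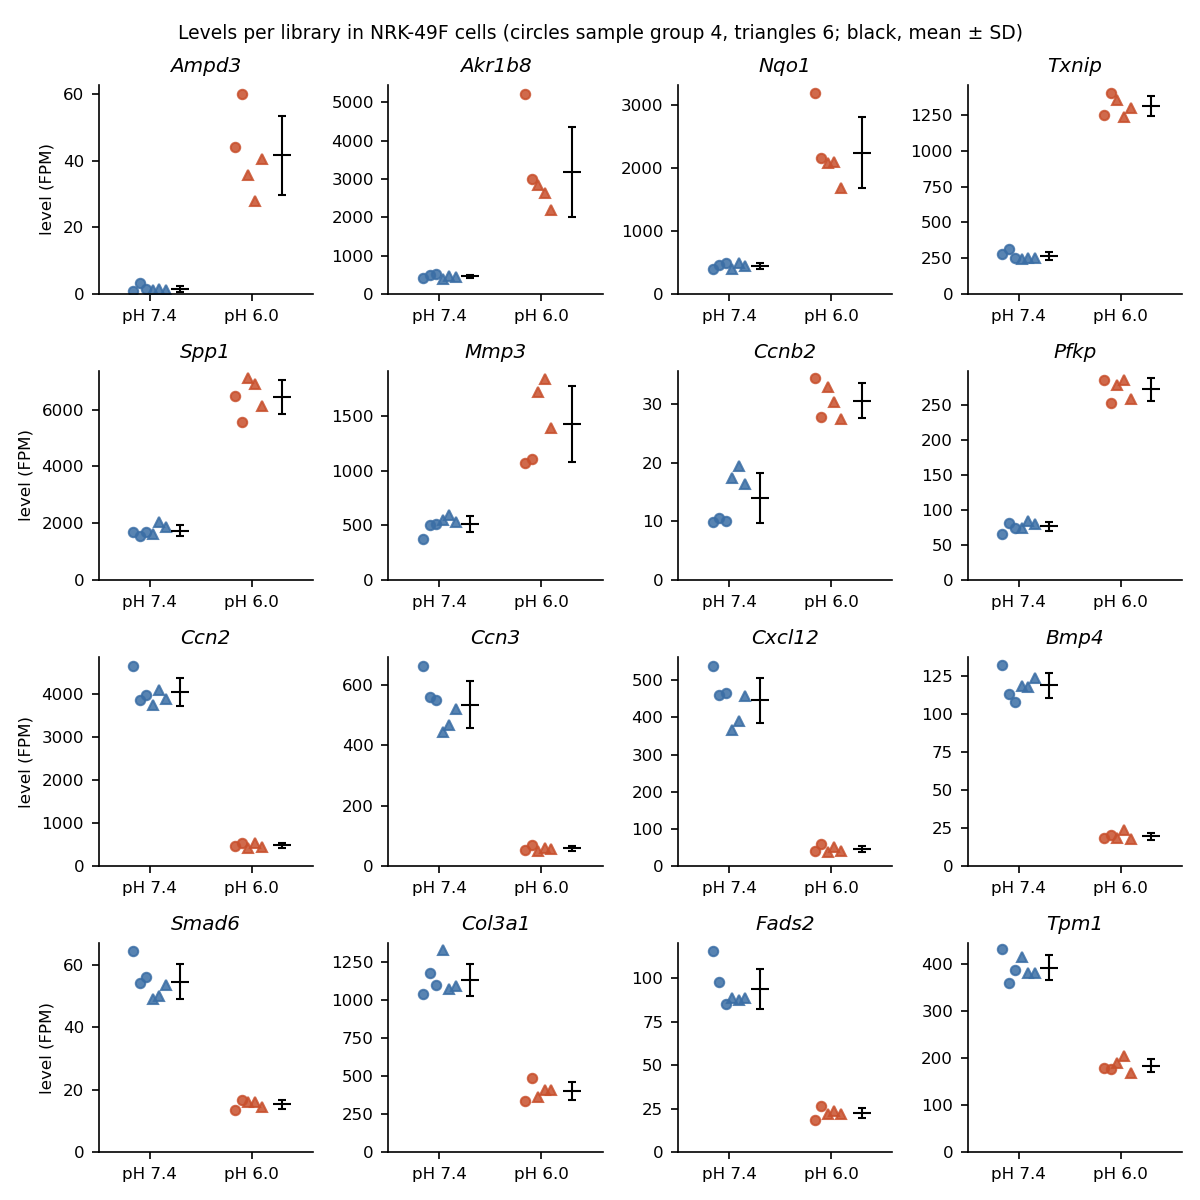
Level in FPM (y axes, linear and from 0) of 16 genes in each NRK-49F library at pH 7.4 and pH 6.0 (x axis), with circles for sample group 4, triangles for sample group 6 and bars for the mean ± SD. In each panel the libraries of both pH values are separate, with Ampd3, Akr1b8, Nqo1, Txnip, Spp1, Mmp3, Ccnb2 and Pfkp higher and Ccn2, Ccn3, Cxcl12, Bmp4, Smad6, Col3a1, Fads2 and Tpm1 lower at pH 6.0.

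**Figure D3:**
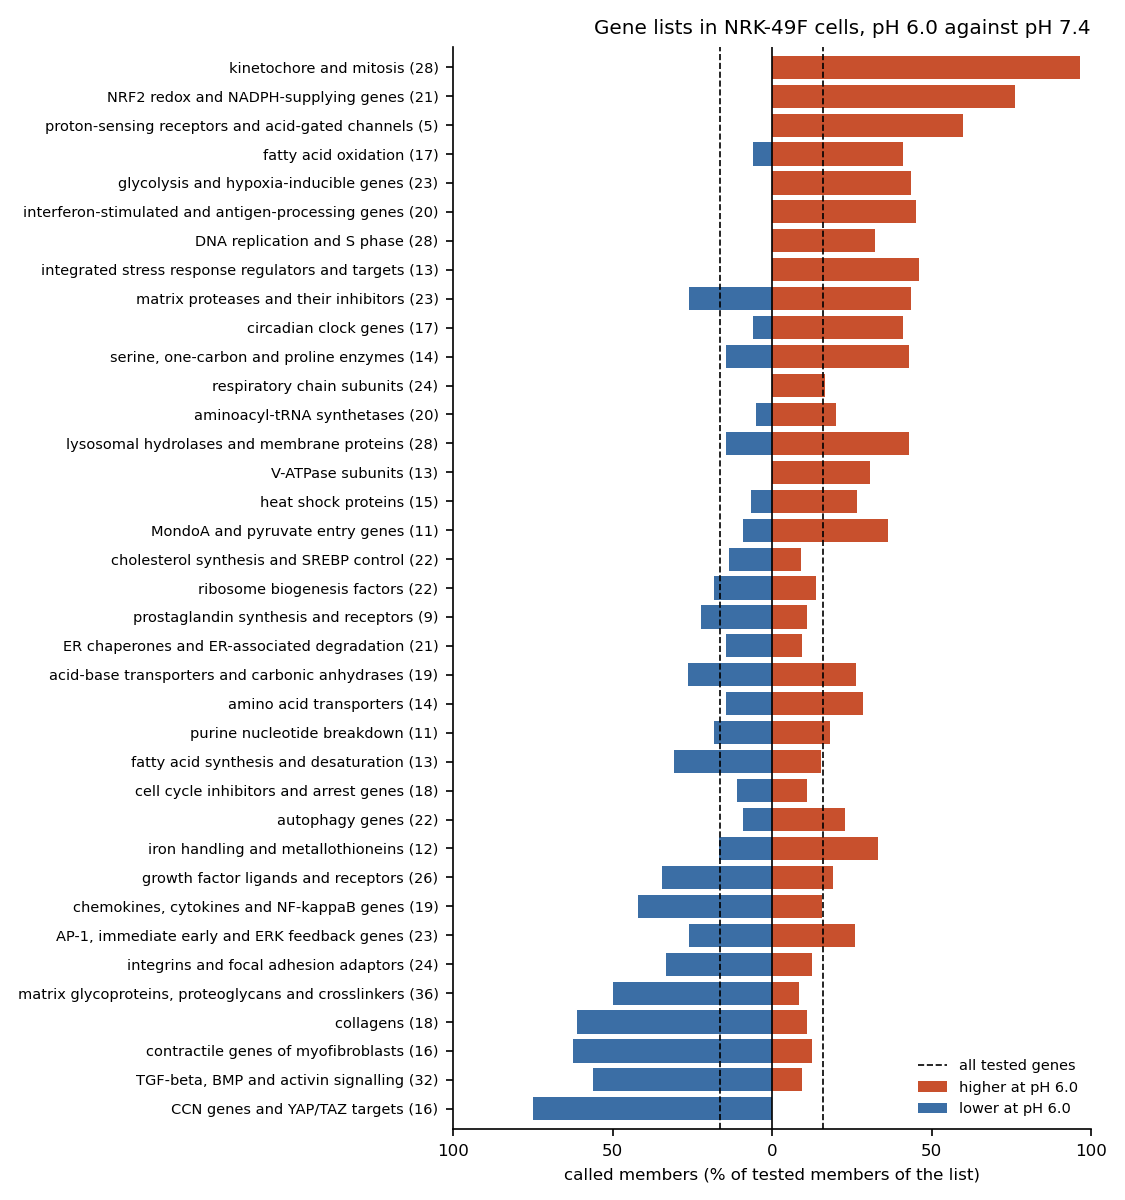
Share of tested members called higher (right) and lower (left) at pH 6.0 in 37 gene lists (x axis, percent of members), with the background over all 13659 genes. The kinetochore and mitosis list (27 of 28 higher) and the NRF2 list (16 of 21 higher) stood furthest to the right, and the list of CCN genes and YAP/TAZ targets (12 of 16 lower) furthest to the left.

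In all, 37 gene lists with 810 distinct genes were examined, of which 709 could be tested and 198 rose and 148 fell. The kinetochore and mitosis list had the largest share of called members of the 37. Of its 28 tested members 27 rose and 0 fell, against a background of 16.1% of all genes, with a median log2 fold change of 0.89 against 0.00309 over all genes. Without A042 and A051, 25 rose. These genes peak in G2 and mitosis, when chromosomes are condensed, attached to the spindle and separated. Ccnb2 (ENSRNOG00000063216, chromosome 8), the cyclin B2 that activates CDK1 for entry into mitosis, was between 9.95 and 19.4 FPM at pH 7.4 with a median of 13.5 (n = 6), and at 34.5, 27.9, 32.8, 30.3 and 27.5 FPM in the 5 libraries at pH 6.0. The groups did not overlap (log2 fold change 1.14 ± 0.15 (SE), adjusted p = 1.2e-04). Its partner Ccnb1 had 14.1 ± 2.56 FPM (SD, n = 6) at pH 7.4 and 26.2 ± 6.16 FPM (SD, n = 5) at pH 6.0 (log2 fold change 0.90, adjusted p = 0.00115), and the kinase Cdk1 had 42.9 ± 6.56 FPM (SD, n = 6) at pH 7.4 and 67.95 ± 11.8 FPM (SD, n = 5) at pH 6.0 (log2 fold change 0.66, adjusted p = 0.00219), with overlap between the pH values. Of the kinetochore, Ndc80, which grips the microtubule end, was at 5.11 to 10.1 FPM at pH 7.4 and 13.1 to 22.2 FPM at pH 6.0 (log2 fold change 1.20, adjusted p = 4.9e-04), Spc24 of the same complex changed by 1.25 log2 units (adjusted p = 0.00130), and Ska1, which stabilises the attachment, by 1.29 log2 units (adjusted p = 0.00275). The proliferation antigen Mki67 changed by 0.62 log2 units (adjusted p = 0.00317), the topoisomerase Top2a by 0.55 log2 units (adjusted p = 0.00223), the kinase Aurkb by 0.69 log2 units (adjusted p = 0.00250) and the activator of the anaphase-promoting complex Cdc20 by 0.97 log2 units (adjusted p = 0.00423). Knl1, the kinetochore scaffold, was the single member not called (log2 fold change 0.24, adjusted p = 0.378).

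Promoters of 4 mitotic genes are shown because such genes share a short element, the cell cycle homology region (CHR, letters TTTGAA), often beside CCAAT boxes, which bind the factor NF-Y. The stretches end 1 base before the annotated start in RefSeq (build GRCr8), read 5′ to 3′ on the strand of the gene, with CHR and CCAAT matches on either strand in capitals (a match on the opposite strand reads TTCAAA or ATTGG). They lie at chr8:79981659-79981808 on the minus strand for Ccnb2, at chr5:137255800-137255899 on the minus strand for Cdc20, at chr20:19265143-19265292 on the plus strand for Cdk1 and at chr10:84473094-84473243 on the minus strand for Top2a.
Ccnb2: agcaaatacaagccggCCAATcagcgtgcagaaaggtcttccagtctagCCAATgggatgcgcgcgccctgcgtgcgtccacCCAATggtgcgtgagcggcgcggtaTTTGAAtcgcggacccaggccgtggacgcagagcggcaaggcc
Cdc20: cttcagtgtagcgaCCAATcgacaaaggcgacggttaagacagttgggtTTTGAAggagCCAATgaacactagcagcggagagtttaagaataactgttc
Cdk1: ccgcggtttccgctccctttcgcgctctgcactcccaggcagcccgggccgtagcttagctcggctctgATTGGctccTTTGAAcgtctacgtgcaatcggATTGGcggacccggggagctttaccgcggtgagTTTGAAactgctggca
Top2a: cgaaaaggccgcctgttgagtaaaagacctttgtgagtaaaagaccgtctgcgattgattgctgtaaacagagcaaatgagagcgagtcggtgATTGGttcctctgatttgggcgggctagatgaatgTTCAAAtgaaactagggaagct
The first base of the CHR lay 43 bases before the start in Ccnb2, 51 in Cdc20, 72 and 16 in Cdk1 and 22 in Top2a. Of the 28 tested members, 24 were matched by symbol to a promoter, and within 250 bases before the start 9 of the 24 (37.5%) held TTTGAA on either strand, against 16% of all 27457 promoters. CCAAT was held by 17 of the 24 (70.8%), against 34.3% of all. Both together were held by 8 (33.3%), against 5.76% of all. These matches describe the letters of the promoters, and binding was not measured.

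**Figure D4:**
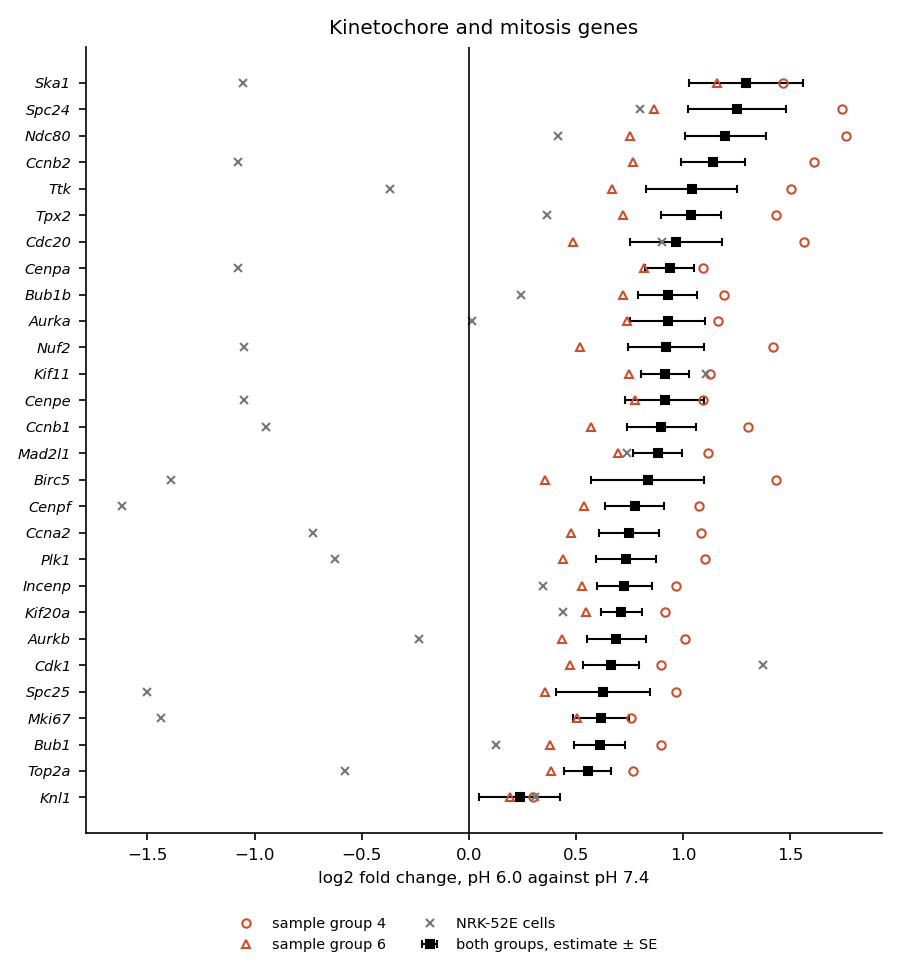
Log2 fold change (pH 6.0 over pH 7.4) of the 28 tested genes of the kinetochore and mitosis list (x axis), 1 gene per row (y axis), with open circles for sample group 4, open triangles for sample group 6, black squares for the estimate over both ± SE and grey crosses for NRK-52E cells. In all 28 rows the circle lies to the right of the triangle, with medians of 1.11 and 0.54.

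The mitotic genes had positive log2 fold changes in both sample groups. Their log2 fold change was larger in sample group 4 than in sample group 6 for 28 of 28 members, with medians of 1.11 and 0.54. Of all tested genes, 51.4% had the larger log2 fold change in sample group 4. In sample group 4 the log2 fold change was also further from 0 for 28 of the 28 members and for 63.9% of all tested genes. The difference was not called for any member (lowest adjusted p = 0.999 in edgeR's quasi-likelihood test of the interaction), and it was called for 0 of the 13659 genes, while 381 had an unadjusted p under 0.05. At pH 7.4 the members were already a median of 0.38 higher on the log2 scale in sample group 6, with a lowest adjusted p of 0.328. In sample group 4 alone 23 members rose, and in sample group 6 alone 13. Sample group 4 held only A042 and A043 at pH 6.0. Without A042 the median over both sample groups was 0.73, against 0.89 with it. The part of A042 in the larger values of sample group 4 was not tested.

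Of 28 genes of DNA replication 9 rose and 0 fell, with a median log2 fold change of 0.30. The count depended on single libraries and was 5 without A039 or without A042 and 12 without A052, and 6 without both A042 and A051. Pold1, the catalytic subunit of DNA polymerase delta, had 18.8 ± 1.83 FPM (SD, n = 6) at pH 7.4 and 35.4 ± 7.29 FPM (SD, n = 5) at pH 6.0 (log2 fold change 0.92, adjusted p = 1.2e-04), and Rrm2, the regulated subunit of ribonucleotide reductase, changed by 0.84 log2 units (adjusted p = 5.4e-05). The replication clamp Pcna (log2 fold change 0.30, adjusted p = 0.119) and the helicase subunit Mcm6 (log2 fold change 0.18, adjusted p = 0.282) were not called. Among inhibitors of the cell cycle, Cdkn1b, which encodes p27, fell (log2 fold change -0.51, adjusted p = 1.8e-04), and Cdkn1a, which encodes p21, was at 254 to 305 FPM at pH 7.4 and 291 to 383 FPM at pH 6.0 (log2 fold change 0.19, adjusted p = 0.0836). Of the 18 genes of the list of cell cycle inhibitors and arrest genes, 2 rose and 2 fell, with Gadd45a higher (log2 fold change 0.66, adjusted p = 3.1e-04).

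The list of NRF2 targets had the next largest share of members that rose. Of 21 tested members 16 rose and 0 fell, with a median log2 fold change of 0.89. Without A042 and A051, 15 rose. NRF2 induces enzymes that make glutathione and reduce quinones, peroxides and thioredoxin, and enzymes that supply their NADPH. Its own gene Nfe2l2 was at 259 to 285 FPM at pH 7.4 and 239 to 289.5 FPM at pH 6.0 and was not called (log2 fold change -0.07, adjusted p = 0.440). The quinone reductase Nqo1 (ENSRNOG00000012772, chromosome 19) was between 392 and 490.3 FPM at pH 7.4 with a median of 446 (n = 6), and at 3188, 2167, 2084, 2099 and 1681 FPM in the 5 libraries at pH 6.0. All libraries at pH 6.0 were several times above those at pH 7.4 (log2 fold change 2.35 ± 0.14 (SE), adjusted p = 2.9e-07). Transketolase, Tkt (ENSRNOG00000016064, chromosome 16), of the non-oxidative pentose phosphate pathway, was between 239 and 286 FPM at pH 7.4 with a median of 261 (n = 6), and at 1744, 1291, 1361, 1333 and 1185 FPM in the 5 libraries at pH 6.0, with a log2 fold change of 2.40 ± 0.10 (SE, adjusted p = 3.0e-08). Taldo1, the transaldolase of the same pathway, changed by 1.58 log2 units (adjusted p = 1.2e-04), and Pgd, which yields NADPH in the oxidative part, by 0.76 log2 units (adjusted p = 4.0e-05). Of the enzymes of glutathione, Gclc and Gclm, the subunits of the rate-limiting ligase, changed by 0.92 log2 units (adjusted p = 2.6e-06) and 0.80 log2 units (adjusted p = 0.00171), the reductase Gsr by 1.12 log2 units (adjusted p = 1.0e-06), and the cystine carrier Slc7a11 by 1.21 log2 units (adjusted p = 0.00426) at a low level of 0.863 to 2.02 FPM at pH 7.4 and 2.19 to 4.75 FPM at pH 6.0. Thioredoxin reductase Txnrd1 changed by 0.89 log2 units (adjusted p = 1.4e-06) and haem oxygenase Hmox1 by 1.39 log2 units (adjusted p = 2.4e-05).

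Library A042 was the highest of its group for several of these genes, with 1237 FPM for the peroxiredoxin Prdx1, where the other 4 at pH 6.0 were 588, 638, 666 and 497 FPM. Prdx1 still rose (log2 fold change 1.29 ± 0.20 (SE), adjusted p = 4.7e-04) and its groups did not overlap. The ferritin chains Ftl1 and Fth1, which store iron and are also induced by NRF2, changed by 1.56 log2 units (adjusted p = 1.1e-04) and 1.11 log2 units (adjusted p = 4.6e-04). Genes such as Prdx1, Ftl1 and Fth1 have processed copies elsewhere in the genome, and with multi-mapping reads counted their levels are uncertain. Of the 12 genes of the iron and metallothionein list, 4 rose and 2 fell, with 3 falls without A052 and 1 on leaving out any one of A039, A040, A051, A053 and A054. Mt2A, a metallothionein that binds zinc and copper, fell (log2 fold change -0.72, adjusted p = 0.00460).
One promoter of the list is shown for its antioxidant response element core (letters TGACNNNGC, in capitals, here on the opposite strand), that of Prdx1 at chr5:135383756-135383905 on the plus strand in GRCr8.
Prdx1: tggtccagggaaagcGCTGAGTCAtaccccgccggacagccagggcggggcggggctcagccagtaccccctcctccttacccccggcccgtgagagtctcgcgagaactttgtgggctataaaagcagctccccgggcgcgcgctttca
The core was found in 3 of 19 matched promoters of the list (15.8%), in Gclm, Me1 and Prdx1, and in 10.2% of all promoters.

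Most genes of the list of CCN genes and YAP/TAZ targets fell. The list takes all tested CCN genes, whether or not they are such targets, and also Yap1, Wwtr1 and Tead1, so its counts are not counts of targets alone. Of 16 tested members 12 fell and 0 rose, against a background of 16.3% that fell, with a median log2 fold change of -1.15. Without A042 and A051, 12 fell. CCN proteins are secreted and bind integrins and growth factors, and CCN2, also called connective tissue growth factor, is known from fibrosis. Ccn2 (ENSRNOG00000015036, chromosome 1) was between 3732 and 4644 FPM at pH 7.4 with a median of 3926 (n = 6), and at 482, 535, 422, 543 and 446 FPM in the 5 libraries at pH 6.0. The lowest library at pH 7.4 was several times above the highest at pH 6.0 (log2 fold change -3.04 ± 0.11 (SE), adjusted p = 5.3e-09). Ccn3 (ENSRNOG00000008697, chromosome 7) was between 445 and 663 FPM at pH 7.4 with a median of 536 (n = 6), and at 54.1, 71.8, 51.2, 60.9 and 57.2 FPM in the 5 libraries at pH 6.0, again without overlap (log2 fold change -3.15 ± 0.11 (SE), adjusted p = 5.3e-09). The other tested members of the family also fell, and Ccn1 changed by -2.43 log2 units (adjusted p = 2.1e-07), Ccn4 by -1.42 log2 units (adjusted p = 3.2e-06) and Ccn5 by -1.09 log2 units (adjusted p = 7.6e-05). Amotl2 and Ajuba, regulators and targets of the Hippo pathway, changed by -2.29 log2 units (adjusted p = 1.6e-07) and -1.89 log2 units (adjusted p = 1.1e-07), and the Hippo kinase Lats2 by -1.08 log2 units (adjusted p = 5.5e-04). The genes of the co-activators were not called, with Yap1 at a log2 fold change of -0.16 (adjusted p = 0.217) and Wwtr1, which encodes TAZ, at a log2 fold change of 0.07 (adjusted p = 0.519), nor was the partner Tead1 (log2 fold change -0.74, adjusted p = 0.129).

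Genes of TGF-beta, BMP and activin signalling fell more often than the background. Of 32 tested members 18 fell and 3 rose, with a median log2 fold change of -0.58, and the counts were the same without A042 and A051. Among the ligands, Tgfb2 and Tgfb3 changed by -1.07 log2 units (adjusted p = 1.4e-05) and -1.19 log2 units (adjusted p = 2.3e-07), the activin subunit Inhbb by -1.41 log2 units (adjusted p = 7.1e-06), and Tgfb1 was not called (log2 fold change 0.15, adjusted p = 0.386). Bmp4 (ENSRNOG00000009694, chromosome 15) was between 108 and 132 FPM at pH 7.4 with a median of 118 (n = 6), and at 18.4, 20.3, 18.9, 23.7 and 18.1 FPM in the 5 libraries at pH 6.0. Its groups were far apart (log2 fold change -2.58 ± 0.09 (SE), adjusted p = 5.3e-09). Of the receptors, Tgfbr2, which binds the ligand, fell (343 ± 23.4 FPM (SD, n = 6) at pH 7.4 and 175 ± 20.9 FPM (SD, n = 5) at pH 6.0, log2 fold change -0.97, adjusted p = 1.0e-05), and Tgfbr1 was at a log2 fold change of -0.02 (adjusted p = 0.929). Among the SMAD genes the inhibitory Smad6 (ENSRNOG00000009173, chromosome 8) was between 49.02 and 64.5 FPM at pH 7.4 with a median of 53.99 (n = 6), and at 13.4, 16.7, 16.1, 16.02 and 14.7 FPM in the 5 libraries at pH 6.0, with a log2 fold change of -1.82 ± 0.09 (SE, adjusted p = 1.1e-07), and Smad7 changed by -0.62 log2 units (adjusted p = 0.00415). The signal-carrying Smad3 (log2 fold change -0.52, adjusted p = 0.117) and the common partner Smad4 (log2 fold change -0.02, adjusted p = 0.835) were not called. Of the transcriptional targets, Id1, Id2 and Id3, inhibitors of differentiation that BMP induces, changed by -0.97 log2 units (adjusted p = 1.4e-04), -1.17 log2 units (adjusted p = 1.0e-05) and -0.78 log2 units (adjusted p = 1.1e-04), and the TGF-beta target Pmepa1 by -1.37 log2 units (adjusted p = 8.0e-07). The extracellular BMP inhibitor Grem1 changed by -0.64 log2 units (adjusted p = 9.8e-05). In a fit over all 23 libraries, which estimates the spread over both lines together, its log2 fold change in NRK-49F cells was -0.63 (adjusted p = 0.266). The pseudoreceptor Bambi (log2 fold change 0.60, adjusted p = 4.0e-04) and the repressor Tgif1 (log2 fold change 0.44, adjusted p = 1.9e-04), both of which dampen the pathway, were among the 3 that rose.

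Most collagens fell. Of 18 tested collagen genes 11 fell and 2 rose, with a median log2 fold change of -0.53, and 11 fell without A042 and A051 and on leaving out any single library. The fibrillar Col1a1 had 5489 ± 586 FPM (SD, n = 6) at pH 7.4 and 3502 ± 637 FPM (SD, n = 5) at pH 6.0 (log2 fold change -0.64, adjusted p = 0.00340), and Col1a2 changed by -0.42 log2 units (adjusted p = 0.00864) with overlap between the groups. Col3a1 (ENSRNOG00000003357, chromosome 9), the fibrillar collagen of loose tissue, was between 1036 and 1324 FPM at pH 7.4 with a median of 1092 (n = 6), and at 337, 489.7, 363, 412 and 408 FPM in the 5 libraries at pH 6.0, and its groups did not overlap (log2 fold change -1.49 ± 0.11 (SE), adjusted p = 1.7e-06). The largest falls were those of Col5a3 (log2 fold change -2.20, adjusted p = 3.5e-07), a collagen that regulates fibril width, and of Col12a1 (log2 fold change -2.06, adjusted p = 8.2e-06), which sits on the fibril surface. The risers were Col18a1, a basement membrane collagen (log2 fold change 1.21, adjusted p = 1.7e-06), and Col6a1 of the microfibrils (log2 fold change 0.54, adjusted p = 6.3e-04). In the fit over all 23 libraries, which estimates the spread over both lines together, the log2 fold change in NRK-49F cells was -0.41 for Col1a2 (adjusted p = 0.618). For Col6a1 it was 0.54 (adjusted p = 0.325).

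Of 36 other matrix genes, 18 fell and 3 rose, with a median log2 fold change of -0.33, and 16 fell without A042 and A051. The largest rise was that of Spp1 (ENSRNOG00000043451, chromosome 14), osteopontin, a secreted phosphoprotein of injured kidney, which was between 1556 and 2034 FPM at pH 7.4 with a median of 1691 (n = 6), and at 6479, 5576, 7096, 6892 and 6141 FPM in the 5 libraries at pH 6.0. The groups were separate (log2 fold change 1.87 ± 0.10 (SE), adjusted p = 1.3e-07). Thrombospondin-1, Thbs1, an activator of latent TGF-beta, fell (5172 ± 865 FPM (SD, n = 6) at pH 7.4 and 1554 ± 382 FPM (SD, n = 5) at pH 6.0, log2 fold change -1.71, adjusted p = 1.5e-05). The crosslinking enzyme lysyl oxidase, Lox, was at 148 to 271 FPM at pH 7.4 and 41.5 to 84.9 FPM at pH 6.0 (log2 fold change -1.64, adjusted p = 1.6e-04), and Sparc, which assists collagen assembly, changed by -0.77 log2 units (adjusted p = 9.9e-05). The microfibril protein Mfap5 fell with a log2 fold change of -1.94 and of -1.34 without A051, which had the highest level. Fibronectin, Fn1, was at 5731 to 9885 FPM at pH 7.4 and 5178 to 10936 FPM at pH 6.0 and was not called (log2 fold change 0.06, adjusted p = 0.869).

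Matrix proteases moved in both directions. Of 23 genes of proteases and their inhibitors 10 rose and 6 fell, with a median log2 fold change of 0.25. Stromelysin-1, Mmp3 (ENSRNOG00000032626, chromosome 8), which cleaves proteoglycans and activates other proteases, was between 378 and 592 FPM at pH 7.4 with a median of 520.5 (n = 6), and at 1073, 1107, 1719.9, 1839 and 1389.9 FPM in the 5 libraries at pH 6.0. The groups did not overlap, and the 2 libraries of sample group 4 at pH 6.0 were the lowest of their group (log2 fold change 1.42 ± 0.12 (SE), adjusted p = 3.3e-06). The gelatinase Mmp2 changed by 1.06 log2 units (adjusted p = 4.8e-07), Mmp19 by 1.03 log2 units (adjusted p = 3.4e-07) and the aggrecanase Adamts4 by 2.20 log2 units (adjusted p = 6.1e-08). Collagenase-3, Mmp13, rose from a low level (0.687 to 1.66 FPM at pH 7.4 and 4.48 to 12.6 FPM at pH 6.0, log2 fold change 2.80, adjusted p = 3.5e-06). The proteoglycanase Adamts9 (log2 fold change -2.15, adjusted p = 3.2e-04) and the membrane-bound Mmp16 (log2 fold change -1.08, adjusted p = 8.6e-05) fell. The membrane-type collagenase Mmp14 (log2 fold change -0.22, adjusted p = 0.121) and the inhibitor Timp1 (log2 fold change -0.41, adjusted p = 0.0687) were not called. The median log2 fold change of the list was -0.01 in sample group 4 and 0.49 in sample group 6, and no member's difference between the sample groups was called.

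Contractile genes fell for the larger part. Of 16 tested members 10 fell and 2 rose, with a median log2 fold change of -0.53, and 8 fell and 1 rose without A042 and A051. Tropomyosin Tpm1 (ENSRNOG00000018184, chromosome 8) was between 359.7 and 433 FPM at pH 7.4 with a median of 385 (n = 6), and at 179.8, 178, 191, 206 and 170.1 FPM in the 5 libraries at pH 6.0, without overlap (log2 fold change -1.09 ± 0.08 (SE), adjusted p = 1.2e-06). The actin crosslinker Flna changed by -1.25 log2 units (adjusted p = 1.5e-06), calponin Cnn2 by -1.18 log2 units (adjusted p = 2.3e-06), and Srf, the transcription factor of many contractile genes, by -0.84 log2 units (adjusted p = 1.6e-05). Acta2, smooth muscle actin and the usual mark of a myofibroblast, was low at both pH values (2.68 to 8.15 FPM at pH 7.4 and 0.962 to 1.69 FPM at pH 6.0, log2 fold change -1.93, adjusted p = 4.9e-04). Tagln, transgelin, had log2 fold change -1.79, adjusted p = 0.0317 with all libraries, but A051 was at 11.7 FPM, far above its group, and without A051 the log2 fold change was -0.85 (adjusted p = 0.0536). Its call was also lost without A039, A054, A055 or A056 (adjusted p = 0.0582, 0.0824, 0.0726 and 0.0661).

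Of 24 integrin and focal adhesion genes 8 fell and 3 rose. The collagen-binding Itga11 fell (76.7 ± 15.7 FPM (SD, n = 6) at pH 7.4 and 22.8 ± 5.07 FPM (SD, n = 5) at pH 6.0, log2 fold change -1.73, adjusted p = 1.8e-05), as did the adaptors zyxin, Zyx (log2 fold change -0.97, adjusted p = 3.5e-06), and talin, Tln1 (log2 fold change -0.62, adjusted p = 5.6e-04). The laminin receptors Itga7 (log2 fold change 1.00, adjusted p = 9.1e-05) and Itga6 (log2 fold change 0.59, adjusted p = 0.00687) and the fibronectin receptor chain Itga5 (log2 fold change 0.56, adjusted p = 7.0e-05) rose, and the common beta chain Itgb1 was not called (log2 fold change -0.19, adjusted p = 0.0918).

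Acid-base transporters changed one by one. Of 19 members 5 rose and 5 fell, and 3 fell without A042 and A051. The exchanger Slc4a2, which carries bicarbonate out of the cell and so loads acid, fell (170.1 ± 7.63 FPM (SD, n = 6) at pH 7.4 and 78.9 ± 8.48 FPM (SD, n = 5) at pH 6.0, log2 fold change -1.11, adjusted p = 1.5e-06), and the endosomal sodium/proton exchanger Slc9a9 fell as well (log2 fold change -1.43, adjusted p = 1.2e-05). Carbonic anhydrase 9 (Ca9), which acts on the cell surface, was at 118 to 146 FPM at pH 7.4 and 217 to 229 FPM at pH 6.0 (log2 fold change 0.75, adjusted p = 7.7e-06). It rose, as did the lactate and proton carrier Slc16a1 (log2 fold change 0.44, adjusted p = 9.9e-04) and the voltage-gated proton channel Hvcn1 (log2 fold change 1.17, adjusted p = 0.00116). The sodium bicarbonate carrier Slc4a7 rose (log2 fold change 1.34, adjusted p = 0.0142), with overlap, and its adjusted p was 0.0639 without A043.

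Of 5 tested proton-sensing receptors and acid-gated channels 3 rose, and 2 without A042 and A051. The proton-activated chloride channel Pacc1 was at 18.5 to 26.8 FPM at pH 7.4 and 30.7 to 49.1 FPM at pH 6.0 (log2 fold change 0.81, adjusted p = 0.00112). The cation channel Trpv1 was at 0.0505 to 0.390 FPM at pH 7.4 and 0.791 to 1.83 FPM at pH 6.0 (log2 fold change 2.55, adjusted p = 2.1e-04). Of 13 subunits of the V-ATPase, the proton pump of lysosomes, 4 rose and 0 fell, and without A042 and A051 2 rose and 1 fell, with Atp6v1h at a log2 fold change of 0.58 (adjusted p = 6.4e-05) and the catalytic Atp6v1a at a log2 fold change of 0.11 (adjusted p = 0.396).

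Genes of glucose use rose in part. Of 23 glycolytic and hypoxia-inducible genes 10 rose and 0 fell, with a median log2 fold change of 0.39. Pfkp (ENSRNOG00000017163, chromosome 17), the platelet form of phosphofructokinase, which sets the pace of glycolysis, was between 65.03 and 84.7 FPM at pH 7.4 with a median of 76.99 (n = 6), and at 284, 252, 278, 285 and 258 FPM in the 5 libraries at pH 6.0, and the pH values did not overlap (log2 fold change 1.82 ± 0.08 (SE), adjusted p = 2.5e-08). The glucose carrier Slc2a1 changed by 0.93 log2 units (adjusted p = 7.6e-06), the growth factor Vegfa by 1.45 log2 units (adjusted p = 3.3e-05) and the peptide adrenomedullin, Adm, by 1.32 log2 units (adjusted p = 1.2e-07). The lactate dehydrogenase Ldha (log2 fold change 0.13, adjusted p = 0.541) and the lactate exporter Slc16a3 (log2 fold change -0.45, adjusted p = 0.224) were not called. Txnip (ENSRNOG00000021201, chromosome 2), which limits glucose uptake and is a target of the glucose sensor MondoA, was between 246 and 312 FPM at pH 7.4 with a median of 252 (n = 6), and at 1249.8, 1404, 1357, 1239 and 1301 FPM in the 5 libraries at pH 6.0. All 5 libraries at pH 6.0 were above all at pH 7.4 (log2 fold change 2.32 ± 0.08 (SE), adjusted p = 5.3e-09). Its relative Arrdc4 changed by 1.68 log2 units (adjusted p = 1.3e-06), and the MondoA gene Mlxip was at a log2 fold change of 0.07 (adjusted p = 0.839). Of the 11 genes of this MondoA and pyruvate list 4 rose and 1 fell.

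Of 17 genes of fatty acid oxidation 7 rose, with a median log2 fold change of 0.42, and 1 fell, or 0 on leaving out any one of A040, A041, A042, A043, A051, A053 and A054 or both A042 and A051. The lipid droplet coat protein Plin2 changed by 1.68 log2 units (adjusted p = 2.9e-06), the subunits Hadha and Hadhb of the trifunctional protein by 1.05 log2 units (adjusted p = 5.1e-06) and 0.96 log2 units (adjusted p = 1.5e-06), and the acyl-CoA dehydrogenase Acadl by 1.00 log2 units (adjusted p = 1.8e-05). Cpt1a, the gate of long-chain fatty acids into the mitochondrion, was not called (log2 fold change 0.01, adjusted p = 0.966). Of 13 genes of fatty acid synthesis and desaturation 4 fell and 2 rose, with 2 falls on leaving out any one of A039, A051 and A054 and 3 on leaving out any other, and 2 without both A042 and A051. The fall of Fads2 (ENSRNOG00000020440, chromosome 1), the delta-6 desaturase of polyunsaturated fatty acids, was the largest, and its level was between 85.3 and 115 FPM at pH 7.4 with a median of 88.5 (n = 6), and at 18.4, 26.5, 22.1, 23.8 and 21.9 FPM in the 5 libraries at pH 6.0. The groups were far apart (log2 fold change -2.04 ± 0.11 (SE), adjusted p = 1.5e-07), while the neighbouring desaturase Fads1 changed by -0.45 log2 units (adjusted p = 3.2e-04). Of 22 cholesterol genes 2 rose, or 5 without A052, and 3 fell, with a median log2 fold change of 0.02. The regulators Srebf2 (log2 fold change -0.05, adjusted p = 0.745) and Insig1 (log2 fold change -0.01, adjusted p = 0.920) were not called. Of 24 respiratory chain genes 4 rose, or 2 without A042 and A051, and 0 fell. The 4 risers included Sdha (log2 fold change 0.27, adjusted p = 0.00607) and Sdhd (log2 fold change 0.62, adjusted p = 0.00287) of complex II.

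Of 13 genes of the integrated stress response 6 rose and 0 fell, with a median log2 fold change of 0.29. Atf3, a transcription factor of this response, was between 2.53 and 4.21 FPM at pH 7.4 with a median of 3.05 (n = 6), and at 44.8, 34.7, 31.03, 30.7 and 27.8 FPM in the 5 libraries at pH 6.0, and the pseudokinase Trib3 (ENSRNOG00000007319, chromosome 3) was at 7.09 to 10.5 FPM at pH 7.4 and 22.98 to 36.7 FPM at pH 6.0 (log2 fold change 1.72, adjusted p = 3.4e-06). Ddit3, which encodes CHOP, changed by 0.81 log2 units (adjusted p = 0.00431) with overlap, the asparagine synthetase Asns by 0.45 log2 units (adjusted p = 3.2e-04), and the central factor Atf4 was not called (log2 fold change 0.29, adjusted p = 0.0937).
The promoter of Trib3 is shown for its match to the element bound by C/EBP and ATF factors (letters TGATGNAA, in capitals, on the opposite strand, 21 bases before the start), at chr3:161275534-161275633 on the minus strand in GRCr8.
Trib3: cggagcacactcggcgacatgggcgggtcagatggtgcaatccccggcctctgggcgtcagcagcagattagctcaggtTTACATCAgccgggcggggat
This element was held by 2 of 12 matched promoters of the list (16.7%), those of Chac1 and Trib3, and by 3.27% of all promoters.

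Of 14 genes of serine, one-carbon and proline metabolism 6 rose and 2 fell, with the proline enzyme Pycr1 at a log2 fold change of 0.83 (adjusted p = 0.00151), the mitochondrial folate enzyme Mthfd2 at a log2 fold change of 0.80 (adjusted p = 3.9e-04), the serine enzyme Psat1 at a log2 fold change of 0.83 (adjusted p = 5.4e-04) and its upstream partner Phgdh at a log2 fold change of -0.08 (adjusted p = 0.728). Of 14 amino acid transporters 4 rose, among them the glycine carrier Slc6a9 (log2 fold change 0.78, adjusted p = 2.4e-04), the heavy chain Slc3a2 (log2 fold change 0.51, adjusted p = 0.00107) and Slc1a4 (log2 fold change 0.51, adjusted p = 7.0e-04), and 2 fell, with 3 falls without A043 and 1 on leaving out any one of A039, A040, A042, A051, A053, A054 and A055 or both A042 and A051. Of 20 aminoacyl-tRNA synthetases 4 rose, with Mars1 at a log2 fold change of 0.54 (adjusted p = 0.00117), and 1 fell, a call that was lost on leaving out any one of the 8 libraries other than A040, A042 and A053. Of 21 genes of the endoplasmic reticulum 2 rose and 3 fell, with 1 rise and 6 falls without both A042 and A051, 7 falls without A042, 2 on leaving out any one of A039, A051, A053, A054 and A055, and 1 rise on leaving out any one of the 8 libraries other than A043, A052 and A056. The chaperone Hspa5 (log2 fold change -0.19, adjusted p = 0.0886) and the factor Xbp1 (log2 fold change -0.16, adjusted p = 0.107) were not called, Hyou1 rose (log2 fold change 0.58, adjusted p = 1.2e-04) and Herpud1, which takes part in the degradation of misfolded proteins, fell (log2 fold change -0.49, adjusted p = 0.00130). Of 15 heat shock genes 4 rose, with Hspb8 at a log2 fold change of 0.78 (adjusted p = 2.9e-05), and 1 fell, or 2 without A042 or without both A042 and A051, while the cytosolic chaperone Hspa8 was at a log2 fold change of -0.01 (adjusted p = 0.971).

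Lysosomal genes rose more often than they fell. Of 28 members 12 rose and 4 fell. The protease Ctsb had 1357 ± 101.0 FPM (SD, n = 6) at pH 7.4 and 2489 ± 308 FPM (SD, n = 5) at pH 6.0 (log2 fold change 0.88, adjusted p = 3.9e-05), Ctsl changed by 0.62 log2 units (adjusted p = 0.00185), Ctsd by 0.47 log2 units (adjusted p = 0.00616) and the mannosidase Manba by 0.91 log2 units (adjusted p = 1.2e-05). Cathepsin S, Ctss, rose from a low level (0.505 to 1.20 FPM at pH 7.4 and 5.37 to 9.39 FPM at pH 6.0, log2 fold change 3.04, adjusted p = 2.8e-06). The factor Tfeb, which induces lysosomal genes, fell (log2 fold change -0.44, adjusted p = 0.00178), and Lamp1 was not called (log2 fold change -0.18, adjusted p = 0.134). The palindrome TCACGTGA, a site of TFEB, was in 2 of 21 matched promoters of the list (9.52%), Ctsd and Lamp1, and in 0.743% of all. Of 22 autophagy genes 5 rose, with the cargo receptor Sqstm1 at a log2 fold change of 0.64 (adjusted p = 8.7e-05) and Gabarapl1 at a log2 fold change of 0.42 (adjusted p = 0.00203), and 2 fell, or 3 without A042 or without both A042 and A051 and 1 on leaving out any one of A041, A043, A051, A053 and A054, with Map1lc3b at a log2 fold change of -0.60 (adjusted p = 5.8e-05).

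Of 19 chemokine, cytokine and NF-kappaB genes 8 fell and 3 rose. Besides Cxcl12, the neutrophil chemokine Cxcl1 fell (78.5 ± 13.7 FPM (SD, n = 6) at pH 7.4 and 38.8 ± 9.20 FPM (SD, n = 5) at pH 6.0, log2 fold change -1.06, adjusted p = 3.3e-04), as did the alarmin Il33 (log2 fold change -0.77, adjusted p = 2.1e-04), the monocyte chemokine Ccl2 (log2 fold change -0.48, adjusted p = 0.00300) and the adhesion molecule Icam1 (log2 fold change -0.32, adjusted p = 0.0128), while Vcam1 rose (log2 fold change 0.55, adjusted p = 0.00553). In a fit over all 23 libraries, with the spread estimated over both lines together, Ccl2 had a log2 fold change of -0.47 (adjusted p = 0.202). Vcam1 had one of 0.55 (adjusted p = 0.1002). The NF-kappaB subunit Rela (log2 fold change -0.04, adjusted p = 0.619) and its inhibitor Nfkbia (log2 fold change 0.26, adjusted p = 0.0650) were not called. Interleukin-6, Il6, rose from a level of few counts (0.0655 to 0.253 FPM at pH 7.4 and 1.26 to 4.04 FPM at pH 6.0, log2 fold change 3.42, adjusted p = 5.1e-05). Of 20 interferon-stimulated and antigen-processing genes 9 rose and 0 fell, with a median log2 fold change of 0.33, and 9 rose without A042 and A051. They included the immunoproteasome subunits Psmb9 (log2 fold change 0.91, adjusted p = 3.9e-04) and Psmb8 (log2 fold change 0.87, adjusted p = 0.00310), the peptide transporter Tap1 (log2 fold change 0.69, adjusted p = 2.3e-05) and the antiviral Bst2 (log2 fold change 0.94, adjusted p = 0.00115), and the factor Irf1 was not called (log2 fold change 0.10, adjusted p = 0.324). Of 9 prostaglandin genes the cyclo-oxygenase Ptgs1 rose (log2 fold change 0.41, adjusted p = 3.1e-04, 2 risers without A042), and Ptgs2 (log2 fold change -0.72, adjusted p = 0.00979) and the receptor Ptger1 (log2 fold change -1.42, adjusted p = 8.3e-06) fell. Ptgs2 had an adjusted p of 0.0782 without A042 and A051. Ptgs1 had a log2 fold change of 0.42 (adjusted p = 0.0562) in the fit over all 23 libraries.

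Of 23 AP-1, immediate early and ERK feedback genes 6 rose and 6 fell. Fosl1 (35.98 ± 2.76 FPM (SD, n = 6) at pH 7.4 and 104 ± 16.9 FPM (SD, n = 5) at pH 6.0, log2 fold change 1.53, adjusted p = 8.1e-07) and Jun (log2 fold change 0.56, adjusted p = 5.0e-05), which pair as AP-1, rose. The ERK phosphatase Dusp6 (log2 fold change -1.22, adjusted p = 6.8e-07), the feedback inhibitor Spry1 (log2 fold change -0.85, adjusted p = 3.9e-05) and the immediate early gene Egr1 (log2 fold change -0.50, adjusted p = 0.00384) fell, and Fos (log2 fold change -0.41, adjusted p = 0.468) and Myc (log2 fold change 0.20, adjusted p = 0.0869) were not called. Of 26 growth factor ligands and receptors 5 rose and 9 fell. The epithelial mitogen Fgf7 rose (71.8 ± 10.2 FPM (SD, n = 6) at pH 7.4 and 141 ± 18.7 FPM (SD, n = 5) at pH 6.0, log2 fold change 1.00, adjusted p = 9.6e-06). The EGF-family ligands Btc (log2 fold change -2.39, adjusted p = 2.3e-05) and Hbegf (log2 fold change -0.79, adjusted p = 2.3e-04), the receptor Igf1r (log2 fold change -1.07, adjusted p = 0.00403) and the PDGF receptor Pdgfrb (log2 fold change -0.72, adjusted p = 0.00245) fell, and Pdgfra was not called (log2 fold change -0.05, adjusted p = 0.854).

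Of 17 circadian genes 7 rose, among them Bhlhe41 (log2 fold change 1.00, adjusted p = 9.5e-06), Cry1 (log2 fold change 0.91, adjusted p = 1.2e-04), Npas2 (log2 fold change 0.81, adjusted p = 0.00195) and Dbp (log2 fold change 0.71, adjusted p = 4.9e-05), while the core clock genes Arntl (log2 fold change 0.08, adjusted p = 0.583) and Per2 (log2 fold change 0.15, adjusted p = 0.638) were not called. The 1 fall in this list was lost on leaving out any one of A040, A041, A042, A051, A053, A054 and A055 or both A042 and A051. Of 22 ribosome biogenesis genes 3 rose and 4 fell, with 1 rise without A042 or A054, 2 rises without both A042 and A051 and 2 falls without A056, with the subunit Polr1a of RNA polymerase I at a log2 fold change of -0.44 (adjusted p = 0.00367) and the processing factor Rrp12 at a log2 fold change of -0.49 (adjusted p = 0.00898). Of 11 genes of purine breakdown 2 rose and 2 fell, the rises being 1 on leaving out any one of the 8 libraries other than A042, A051 and A055, and 3 fell without both A042 and A051. The rise of Ampd3 stood beside falls of the phosphorylase Pnp (log2 fold change -0.42, adjusted p = 0.00398) and the nucleotidase Nt5c2 (log2 fold change -0.39, adjusted p = 0.00656).

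Ncoa5 and Myom1, which the study compared across cells and species, were measured in these fibroblasts. Ncoa5 (ENSRNOG00000017824, chromosome 3), a nuclear receptor coactivator, was between 41.5 and 48.1 FPM at pH 7.4 with a median of 45.8 (n = 6), and at 24.7, 24.6, 25.8, 29.1 and 27.5 FPM in the 5 libraries at pH 6.0. The pH values did not overlap and the level fell (log2 fold change -0.80 ± 0.06 (SE), adjusted p = 2.7e-06). Myom1 (ENSRNOG00000057701, chromosome 9), a protein of the sarcomere, was near the detection limit with 3 to 30 counts a library and 0.154 to 0.603 FPM at pH 7.4 and 0.531 to 1.41 FPM at pH 6.0. It was called higher (log2 fold change 1.35, adjusted p = 0.0217), with overlap, and the call was lost without A039, A042 or A056 (adjusted p = 0.0506, 0.073 and 0.0519).

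The response of NRK-49F cells was set beside that of NRK-52E cells, 6 libraries at each pH, by testing the difference between both changes in a fit over all 23 libraries. Of 14777 genes the changes differed for 6631 (44.9%). Among the 9651 genes that reached a mean of 5 FPM in both lines they differed for 4755 (49.3%), more positive in NRK-49F cells for 26.9% and more negative for 22.4%. Of the NRK-52E libraries at pH 7.4, 3 carried fibroblast signal, with 5 markers (Pdgfra, Col1a2, Prrx1, Twist1 and Lum) at 1.26%, 0.383% and 0.298% of their NRK-49F level, against 0.00212% to 0.036% in the other 9. Results are therefore also given without those 3 libraries, where 5971 of 14982 genes differed (39.9%), a setting chosen after the data had been seen.

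**Figure D5:**
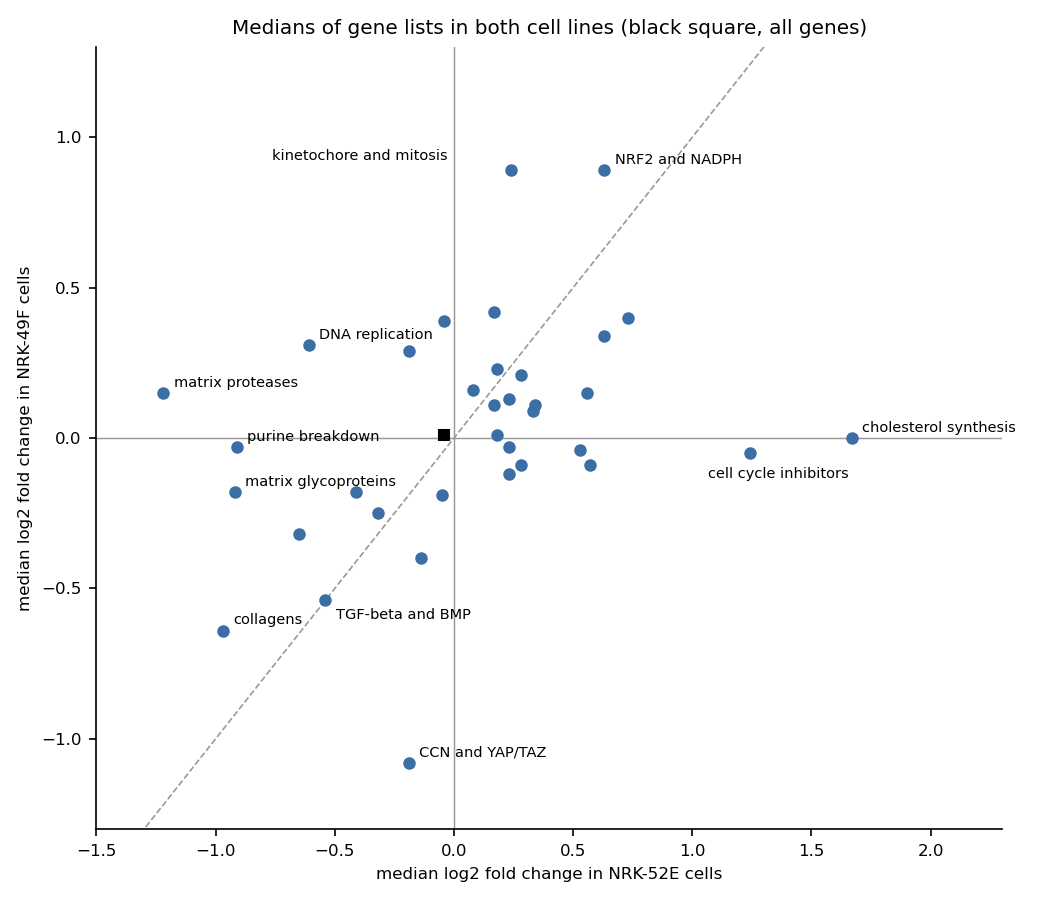
Median log2 fold change (pH 6.0 over pH 7.4) of each gene list in NRK-52E (x axis) and NRK-49F cells (y axis), over members with at least 5 FPM in both lines, for lists with 8 or more such members. Medians are from the fit over all 23 libraries. Circles are lists, the black square is the median of all genes, and the broken line marks equal change. The cholesterol list (0 in NRK-49F against 1.67 in NRK-52E cells), the list of cell cycle inhibitors and arrest genes (-0.05 against 1.24) and the protease list (0.15 against -1.22) lie far from the line.

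The changes of several lists differed between the lines. Of 21 cholesterol genes the change was more negative in NRK-49F cells for 16 and more positive for 0, with medians of 0 in NRK-49F and 1.67 in NRK-52E cells, and the counts were 16 and 0 without the 3 libraries. Of 15 cell cycle inhibitors and arrest genes 12 were more negative and 2 more positive, with medians of -0.05 and 1.24, and 11 and 1 without the 3 libraries. Replication genes were more positive in NRK-49F cells for 16 of 21 and more negative for 0, with medians of 0.31 and -0.61, and 13 and 0 without the 3 libraries. For 21 kinetochore and mitosis genes the counts were 12 and 1, with medians of 0.89 and 0.24, and 13 and 1 without the 3 libraries. Over all 28 tested members, with no limit of 5 FPM in both lines, the NRK-52E median was -0.3. Of 12 proteases 8 were more positive and 0 more negative, with medians of 0.15 and -1.22, and the counts were 8 and 0 without the 3 libraries. All medians in this paragraph are from the fit over all 23 libraries and were not computed without the 3. CCN and YAP/TAZ genes were more negative in NRK-49F cells for 7 of 13 and more positive for 2, with medians of -1.08 and -0.19. Of 18 NRF2 genes 7 were more positive and 6 more negative, with medians of 0.89 and 0.63, and of 24 respiratory chain genes 1 differed.

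Among genes called in NRK-49F cells with a mean of at least 5 FPM in both lines, the 5 with the most positive difference were Ampd3, Spp1, Col1a2, Aldh3a1 and Fgf1. The log2 fold change of Ampd3 was 4.73 in NRK-49F and -0.91 in NRK-52E cells, where it was at 8.09 to 13.0 FPM at pH 7.4 and 2.93 to 10.5 FPM at pH 6.0, a difference of 5.64 ± 0.35 (SE, adjusted p = 4.1e-11) and of 5.81 without the 3 libraries. The mitogen Fgf1 changed by 0.41 against -3.08, a difference of 3.49 ± 0.22 (SE) and of 3.72 without the 3 libraries. The aldehyde dehydrogenase Aldh3a1 changed by -0.66 against -4.57, a difference of 3.90 ± 0.27 (SE) and of 3.67 without the 3 libraries. The other 2, Spp1 and Col1a2, moved without the 3 libraries. In NRK-52E cells Spp1 was at 0.792 to 25.8 FPM at pH 7.4 and 0.552 to 1.57 FPM at pH 6.0. Col1a2 was at 0.415 to 52.9 FPM at pH 7.4 and 0.0546 to 0.670 FPM at pH 6.0. Both passed the limit of 5 FPM in NRK-52E cells only through libraries at pH 7.4, and the 3 with fibroblast signal are among those. The difference of Spp1 was 5.16 ± 0.77 (SE) with them and 2.45 without, and that of Col1a2 was 4.68 ± 1.09 (SE, adjusted p = 0.00134) with them and 0.04 without (adjusted p = 0.952).

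Among the 5 with the most negative difference were Ephx1, Ifi27l2b, Cyp51 and Plk2. The epoxide hydrolase Ephx1, known as a target of NRF2 but not a member of that list, changed by -0.75 in NRK-49F and by 2.51 in NRK-52E cells, a difference of -3.26 ± 0.27 (SE, adjusted p = 4.0e-09). The interferon-induced Ifi27l2b rose in both lines, by 2.64 and 5.84. The sterol demethylase Cyp51 changed by -0.56 against 2.43, a difference of -2.99 ± 0.17 (SE, adjusted p = 1.3e-11). The stress-responsive kinase Plk2 changed by -1.28 against 1.49. Without the 3 libraries these 4 differences ranged from -3.39 to -2.97.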

How the data were processed

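RNA of NRK-49F and NRK-52E cells was sequenced from poly(A) libraries in read pairs. The deposited counts are raw, and the authors made them by mapping reads with HISAT2 (2.1.0 in the submitters' processing notes) and counting pairs on exons of Ensembl genes with featureCounts, multi-mapping reads included. The notes name the build rn6 and the paper's methods a later one, the strand setting is not given in the sources used here, and no coordinates of genes were taken from either build. Genes with close copies may share reads, and overlapping genes on opposite strands may not be separable. Total counts per library were between 16412564 and 34250535. Another 13 columns of the rat table match no label among the samples and were left out. No counts were found under the chromosome label MT in the NRK-49F libraries, so mitochondrial genes could not be assessed.

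Libraries were grouped by their labels for cell line and pH. No replicate code occurs at both pH values, so no samples were paired, and the sample group (4 or 6) was a block. The fits used edgeR 4.0.16 (R 4.3.3). Genes passing filterByExpr (minimum count 10, minimum total 15) were scaled by TMM and put through the quasi-likelihood test with Benjamini-Hochberg adjustment over all tested genes, at a threshold of 0.05. Standard errors are the absolute log2 fold change over the root of F. FPM came from edgeR's cpm function. The interaction of pH and sample group was tested in the same libraries, and the difference between the cell lines in all 23 with their sample groups (1 and 3 for NRK-52E) as blocks. Gene lists are described by counts and medians, without a test. The gene lists were written by hand and chosen, like the libraries and comparisons, with earlier results of these data known.

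Genes are named by a rule, which takes the 10 largest rises and falls among called genes of 5 FPM or more on average without overlap, in each list the 2 called members that rose most and the 2 that fell most plus members that define the list, the 5 genes each way that differ most between the lines, the cell type markers, and Ncoa5 and Myom1. Others were added to describe the lists after their values were known, and some genes that the rule takes are not reported here. Promoters came from RefSeq (GRCr8), matched by symbol, 1 per gene.

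On simulated data with 200 changed genes, the test of the pH effect recovered 184, among them 85 of 100 changed 2-fold and 99 of 100 changed 4-fold, with 11 others called. For the sample group difference, the recovery was 38 of 100 changed 2-fold and 89 of 100 changed 4-fold, with 9 others called. The simulated spread followed the trend with level, without a spread of its own for each gene, a sample group effect or an outlying library. Only 200 of 13659 genes were changed, far fewer than were called in the real data. Recovery in the real data may therefore differ. Tried alternatives were RLE and upper quartile scaling, other filters, other tests (likelihood ratio test, DESeq2 1.42.0, a treat test for a more than 2-fold change), a threshold of 0.01, no block, other sets of libraries (all 23, each sample group alone, each library left out) and an equal depth (thinned to the smallest library). Plots were made in matplotlib 3.10.9 under Python 3.11.15.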

Additional observations from a re-analysis of the deposited data

Results flagged for a closer look

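In all, 518 tests were made in groups of 5 or 6 libraries, on single genes and, once at each pH, on the summed signal of NRK-52E genes. Of these, 33 tests of single genes (6.37% of the 518) had a library that stood apart from its group by Dixon's limit, which chance passes in about 1 of 20 groups. Library A042 of pH 6.0 accounted for 18 of them. It was the highest of its group for Akr1b8 at 5221 FPM, Aldh1l2 at 11.3 FPM, Atf4 at 422 FPM, Ccnb1 at 36.9 FPM, Cyp51 at 103 FPM, Ftl1 at 16963 FPM, Hmox1 at 55.1 FPM, Id2 at 11.9 FPM, Mars1 at 207 FPM, Pold1 at 48.2 FPM, Prdx1 at 1237 FPM, Taldo1 at 2196 FPM and Txnrd1 at 199 FPM, and the lowest for Cpt1a at 427 FPM, Il33 at 367 FPM, Itgb1 at 453 FPM, Jun at 180.1 FPM and Srf at 22.7 FPM. In the other libraries the high values were Ampd3 at 3.46 FPM in A040, Atp6v1e1 at 239.7 FPM in A052, Ccn1 at 156 FPM in A039, Hsf1 at 71.7 FPM in A041, Olfm1 at 6.34 FPM in A040, Pdk1 at 26.2 FPM in A052, Polr1a at 71.7 FPM in A040, Psmb8 at 194 FPM in A052, Pycr1 at 34.2 FPM in A051, Slc6a9 at 37.4 FPM in A043, Spc24 at 13.1 FPM in A052, Tagln at 11.7 FPM in A051 and Zyx at 424 FPM in A041. The low values were Cd68 at 20.2 FPM in A039 and Xdh at 146 FPM in A052. The part of A042 in the results was not tested beyond the counts without it. The signal of NRK-52E genes, not counted among the 33, stood apart in A051 at pH 7.4 (3.0%) and, at pH 6.0, in A054 (0.26%).

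The change with pH differed between NRK-49F and NRK-52E cells for 6631 genes by the test of the difference. The named differences, NRK-49F minus NRK-52E in log2, were 5.64 for Ampd3, 5.16 for Spp1, 4.68 for Col1a2, 3.9 for Aldh3a1, 3.49 for Fgf1, -3.26 for Ephx1, -3.2 for Ifi27l2b, -2.99 for Cyp51 and -2.76 for Plk2. Those of Spp1 and Col1a2 were 2.45 and 0.04 without the 3 NRK-52E libraries that carried fibroblast signal.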

How the results depend on the processing

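The 2195 risers and 2229 fallers were within 1.5 times of these counts under other scaling, filters, the likelihood ratio test, DESeq2, no sample group block, all 23 libraries and thinned libraries, with 2062 to 2488 risers and 2044 to 2549 fallers. A test against a log2 fold change of 1 called 151 and 170, an adjusted p under 0.01 called 1429 and 1423, sample group 4 alone 653 and 548, and sample group 6 alone 1088 and 1117. These settings are stricter or use fewer libraries. Leaving out 1 library at a time gave 1847 to 2354 risers and 1829 to 2301 fallers, 0 genes that differed between the sample groups each time and 6234 to 6788 that differed between the lines. The 0 genes that differed between sample groups became 4 by the likelihood ratio test and 6 by DESeq2. No paired analysis was possible because the replicate codes are not shared between the pH values. The signal of NRK-52E cells in A051 was 1.12% from the 1 gene above 50 FPM and 3.0% from the 23 genes above 20 FPM.

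Of the 261 genes named or examined, 221 were called. None of these 221 reversed its direction under any alternative, and 205 kept their call whichever library was left out. Changes of direction were not counted for genes that were not called. The 16 that lost it under at least 1 omission were Ccng1, Cpt1c, Cry2, Cxcl10, Fasn, Mcm3, Myom1, Npm1, P4hb, Rars1, Slc4a7, Slc7a1, Tagln, Tax1bp1, Tfrc and Xdh. A further 8 that were not called became so under at least 1 omission (Cdkn1a, Gapdh, Hspa5, Nfkbia, Pcna, Ptger2, Timp1 and Xbp1). Without A042 and A051, 4 more calls were lost (Atp6v1e1, Keap1, Ptgs2 and Sdhc). A fit over all 23 libraries ended 11 calls (Axl, Ccl2, Ccng1, Col1a2, Col6a1, Cxcl10, Grem1, Lama4, Mdm2, Ptgs1 and Vcam1) and added 2 (Nfkbia and Pcna). Its adjusted p-values rest on a spread estimated over both lines together. In each sample group fitted alone, 126 of the 221 were called in both. Genes at a few counts per library, such as Myom1, Trpv1 and Il6, are limited by depth, since 3 counts stood for 0.0924 to 0.189 FPM. Median log2 fold changes over all genes were 0.00309 by TMM, 0.00585 by RLE and 0.011 by upper quartile scaling.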
